A study of Homo sapiens with 4 samples.

Results

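The methionine cycle and transsulfuration pathway were followed in PLC8024 cells, an established line from human liver cancer, through 10 genes whose symbols were looked up among the 26603 genes of the expression table: AHCY, AHCYL1, AHCYL2, MAT1A, MAT2A, MAT2B, MTR, MTRR, CBS and CTH. All 10 were found, and all 10 passed the filter on low values. RNA was sequenced from 2 drug-treated and 2 control libraries of that line. No label gives the name, dose or duration of the drug. Nor is it stated that replicates are independent cultures, and a p-value here reflects only how far these 4 libraries spread, which may be technical variation. Levels are fragments per kilobase of exon, scaled to library size (FPKM), and group values are mean ± SD with n = 2 libraries each.

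In the methionine cycle, methionine adenosyltransferase joins methionine to ATP and makes S-adenosylmethionine, the methyl donor of most cellular methylation. Once the methyl group is used, adenosylhomocysteinase splits what remains into adenosine and homocysteine, which is either methylated back to methionine or passed through transsulfuration to cysteine, a building block of glutathione. The healthy liver makes S-adenosylmethionine mainly with the MAT1A enzyme, while most other tissues and many liver tumours rely on MAT2A.

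With drug, AHCYL2 and CTH fell, MAT2A rose slightly, and the other 7 genes did not pass the test. AHCYL2 FPKM fell by 49.95% with drug and CTH FPKM fell by 32.9%, and both calls held with each library left out in turn. MAT2A was 8.94% higher, a call that ended with any library left out, without the filter on low values, when FPKM was rescaled with trimmed means (TMM), and with both count tests. Those of the 10 genes with the highest levels, MAT2A, AHCY and AHCYL1, differed by less than 10% between drug and control. CBS and MAT1A had means at least 29% lower with drug but spread widely between replicates. Tests were made with limma on log2(FPKM + 1) over the 11227 genes that averaged 1 FPKM or more in either group, at a Benjamini-Hochberg adjusted p under 0.05, and log2 fold changes are of drug over control on that scale, where the added 1 shrinks the change of low genes. In bulk RNA, fewer cells that express a gene and less RNA per cell cannot be told apart. Of all tested genes 7.78% rose and 6.02% fell (13.8% in either direction), beside 1 riser and 2 fallers among the 10 genes, and whether these shares differ was not tested. Among the 10 genes the median log2 fold change was 0.00, against 0.04 over all tested genes. Of all calls 56.4% were higher by limma, against 39.2% after TMM rescaling and 43.3% by edgeR. With TMM 4.81% of tested genes rose and 7.46% fell (12.3% in all), beside 0 and 2 of the 10 genes. By edgeR 8.37% rose and 11.0% fell (19.4% in all) and by DESeq2 6.89% rose and 9.88% fell (16.8% in all), beside 0 and 3 of the 10 with either tool. By its adjusted p (under 0.05), the authors' deposited table has higher values with drug for 3.18% of 26603 genes and lower ones for 4.03%, beside 1 higher (MAT2A) and 3 lower (AHCYL2, CTH and MAT1A) of the 10.

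The promoter sequences of the genes that the results turn on are printed next, as the 250 bases before the RefSeq start (GRCh38.p14) that lies nearest to the annotated gene start. They show AHCYL2, which fell, beside its close relative AHCYL1, which did not pass, then CTH, which fell, and then the MAT1A and MAT2A pair. Capitals mark matches on either strand to any of 7 motifs, which are the GC box GGGCGG, the E-box CACGTG, the hypoxia response core ACGTG, the amino acid response element TTGCATCA, the cAMP response element core TGACGT, the CCAAT box CCAAT and the TATA box TATAAA. Sequences run 5′ to 3′ on the strand of the gene.
AHCYL2 (chr7:129224780-129225029, plus strand): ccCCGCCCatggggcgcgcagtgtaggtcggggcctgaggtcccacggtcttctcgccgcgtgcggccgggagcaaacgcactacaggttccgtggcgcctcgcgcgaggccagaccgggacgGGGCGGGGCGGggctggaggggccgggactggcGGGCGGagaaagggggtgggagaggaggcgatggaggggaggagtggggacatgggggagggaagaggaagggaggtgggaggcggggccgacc
AHCYL1 (chr1:109984515-109984764, plus strand): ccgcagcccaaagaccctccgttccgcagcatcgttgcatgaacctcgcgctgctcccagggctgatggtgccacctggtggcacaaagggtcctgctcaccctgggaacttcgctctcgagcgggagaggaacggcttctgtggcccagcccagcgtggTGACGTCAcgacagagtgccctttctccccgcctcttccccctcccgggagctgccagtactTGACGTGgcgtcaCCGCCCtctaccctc
CTH (chr1:70411018-70411267, plus strand): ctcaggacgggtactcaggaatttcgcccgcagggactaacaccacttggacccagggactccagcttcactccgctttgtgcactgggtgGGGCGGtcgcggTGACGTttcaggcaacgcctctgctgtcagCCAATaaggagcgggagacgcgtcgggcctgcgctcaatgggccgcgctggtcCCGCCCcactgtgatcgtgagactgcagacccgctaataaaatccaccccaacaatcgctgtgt
MAT1A (chr10:80289659-80289908, minus strand): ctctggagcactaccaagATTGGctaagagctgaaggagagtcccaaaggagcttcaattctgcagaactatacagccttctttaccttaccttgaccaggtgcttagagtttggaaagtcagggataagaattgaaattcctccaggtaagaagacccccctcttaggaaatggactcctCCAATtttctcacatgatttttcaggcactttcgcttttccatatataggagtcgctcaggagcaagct
MAT2A (chr2:85538918-85539167, plus strand): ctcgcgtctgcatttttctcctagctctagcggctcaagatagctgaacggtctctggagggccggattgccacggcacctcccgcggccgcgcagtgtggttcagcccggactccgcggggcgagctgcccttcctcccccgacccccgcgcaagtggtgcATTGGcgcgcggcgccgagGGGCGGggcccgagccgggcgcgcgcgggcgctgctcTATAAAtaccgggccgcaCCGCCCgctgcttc

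The AHCYL2 window held 4 GC box matches, which overlap in part, and none to the other 6 motifs. In AHCYL1 there were 3 matches to TGACGT, of which 2 overlap in 1 palindrome, with 1 GC box and 1 ACGTG that overlaps a TGACGT match. CTH held 2 GC boxes, 1 TGACGT and 1 CCAAT, and none to TTGCATCA. MAT2A held 2 GC boxes, 1 CCAAT and 1 TATAAA, whereas MAT1A held 2 CCAAT matches and none to the other 6. Over 34788 promoter windows of the same length in RefSeq, 42.6% held GGGCGG, 32.02% CCAAT, 18.5% ACGTG, 10.8% TATAAA, 7.09% TGACGT, 6.31% CACGTG and 0.776% TTGCATCA. Base composition differed most, among the 5 windows printed, between MAT1A and AHCYL2, and the MAT pair lay nearly as far apart. GC content was 44.8% in MAT1A and 71.6% in MAT2A, and the CpG count over that predicted from base composition was 0.160 in MAT1A and 1.064 in MAT2A, against a median over all windows of 58.0% GC and a CpG ratio of 0.556. The AHCYL2 window was 74.8% GC with a CpG ratio of 0.861, and that of CTH was 61.6% GC with a ratio of 0.845. AHCYL2 has 6 starts in RefSeq, and the values used here are per gene, so they do not say which start was used.

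The line was checked against marker genes. Keratins of liver epithelial cells were abundant, with KRT18 between 221 and 233 FPKM in drug libraries and between 158 and 164 FPKM in control libraries. ALB was 1.31 and 1.32 FPKM with drug and 3.15 and 3.23 FPKM in controls, while TTR was listed at 0 in 3 of 4 libraries and APOB did not exceed 0.0384 FPKM. APOA1 was 14.3 and 15.4 FPKM with drug and 17.5 and 17.1 FPKM in controls, and SERPINA1 was 11.04 and 9.68 FPKM with drug and 9.93 and 10.6 FPKM in controls. Over the 7 liver epithelial markers the summed level ran from 419 to 440 FPKM with drug and from 318 to 332 FPKM in controls. Most of that sum was KRT18 and KRT8, which averaged 175 FPKM with drug and 133 FPKM in controls for KRT8. The sum thus mainly follows these keratins. Of the 5 markers that were tested KRT8 and KRT18 rose and ALB and APOA1 fell. Endothelial VWF and CDH5 and fibroblast COL1A1 and COL1A2 were below 0.1 FPKM in every library, PDGFRB was 0.626 and 0.598 FPKM with drug and 0.359 and 0.327 FPKM in controls, and the 3 leukocyte markers were not analysed here. PECAM1, the other endothelial marker, was 2.09 and 2.23 FPKM with drug and 4.66 and 4.11 FPKM in controls, and its part in the results below was not tested. Reads assigned to genes totalled 40279560 and 38685856 in drug libraries 1 and 2, and 28526098 and 38611635 in control libraries 1 and 2.

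**Figure D1:**
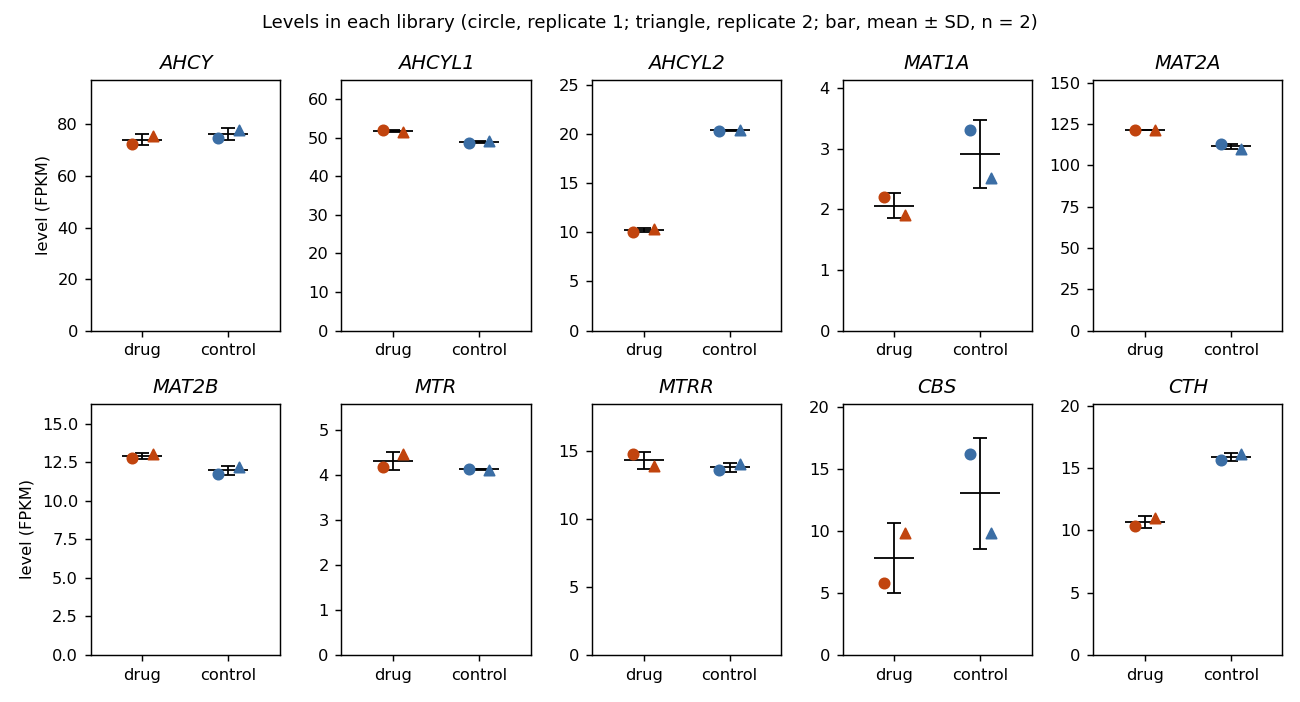
Level of each gene in FPKM (vertical axis, from 0) in the drug libraries (red, left) and control libraries (blue, right), with circles for replicate 1, triangles for replicate 2 and bars for the mean ± SD of 2 libraries. AHCYL2 and CTH separate cleanly, whereas CBS and MAT1A spread between replicates.

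Levels per kilobase put MAT2A first in both groups, at 121 ± 0.126 FPKM with drug and 111 ± 1.80 FPKM in controls. AHCY followed at 74.0 ± 2.07 and 76.3 ± 2.25 FPKM in drug and control libraries, then AHCYL1 at 51.8 ± 0.320 and 48.8 ± 0.308 FPKM. With drug MTRR came next at 14.3 ± 0.630 FPKM, then MAT2B at 12.9 ± 0.175, CTH at 10.6 ± 0.459, AHCYL2 at 10.2 ± 0.204 and CBS at 7.83 ± 2.82 FPKM, where CTH lay above AHCYL2 in both libraries by less than 1 FPKM. In controls AHCYL2 came next at 20.3 ± 0.0825 FPKM, then CTH at 15.9 ± 0.300, MTRR at 13.8 ± 0.336, CBS at 13.0 ± 4.47 and MAT2B at 11.98 ± 0.320 FPKM, where CBS cannot be placed against its neighbours. MTR was at 4.31 ± 0.199 FPKM with drug and 4.12 ± 0.0164 FPKM in controls, and MAT1A was lowest at 2.06 ± 0.210 and 2.91 ± 0.561 FPKM in drug and control libraries. The lengths behind FPKM were those of GENCODE 29 to within 3% for 8 of the genes, but the values of MTR and MAT2B imply 19254 and 8700 bases against 11374 and 5153 in that annotation. Levels of these genes would be higher with the shorter lengths, while their fold changes do not depend on length.

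Of the methionine adenosyltransferase genes, MAT2A rose by limma and the others did not pass. MAT2A (ENSG00000168906, chromosome 2 at 85539165 to 85545280 in GRCh38), the catalytic subunit of the enzyme outside the adult liver, had 121 and 122 FPKM in the drug libraries, against 113 and 110.2 FPKM in the controls. Both drug libraries lay above both controls, by a small margin. The log2 fold change was 0.12 ± 0.03 SE (limma adjusted p = 0.0393), and after TMM rescaling it was 0.08 (limma adjusted p = 0.124), a scaling under which the median of all tested genes was 0.00. With edgeR on whole reads its adjusted p was 0.0759, and with each library left out the limma adjusted p ran from 0.09995 to 0.150. MAT2A overlaps GGCX on the opposite strand, and whether the authors' counting used strand is not given in the sources used here.

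MAT2B (ENSG00000038274, chromosome 5 at 163503114 to 163519336), the regulatory subunit that binds the MAT2A enzyme, had 12.8 and 13.0 FPKM with drug, against 11.7 and 12.2 FPKM in controls. The groups did not overlap, but the log2 fold change of 0.10 did not pass (95% interval 0.01 to 0.19, limma adjusted p = 0.132). MAT1A (ENSG00000151224, chromosome 10 at 80271820 to 80289684), the liver form of the catalytic subunit, had 2.21 and 1.91 FPKM with drug, against 3.31 and 2.52 FPKM in controls. Both drug values lay below both control values, on 326 and 271 reads with drug and 346 and 356 reads in controls. Its log2 fold change of -0.35 ± 0.12 SE did not pass limma (adjusted p = 0.113), while it passed as lower on whole reads with edgeR (adjusted p = 0.0495) and DESeq2 (0.0205), and the authors' deposited table lists an adjusted p of 0.0338. Within each library MAT2A exceeded MAT1A 54.9-fold and 63.6-fold with drug, and 34.1-fold and 43.8-fold in controls. MAT1A thus made up 1.67 ± 0.169% of the FPKM of both catalytic genes with drug and 2.54 ± 0.438% in controls. Neither gene's own test is a test of this share or of the ratio, which were not tested.

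Of adenosylhomocysteinase and its relatives, AHCYL2 fell and the others did not pass. AHCY (ENSG00000101444, chromosome 20 at 34280268 to 34311802), the enzyme that removes S-adenosylhomocysteine, had 72.6 and 75.5 FPKM with drug, against 74.7 and 77.9 FPKM in controls. These ranges overlap, and the log2 fold change was -0.04 with a 95% interval of -0.13 to 0.05 (limma adjusted p = 0.441). AHCY overlaps AL035458.2 and AL356299.2 on its own strand, and 1.061% of its 100-base words occur in AL035458.2. AHCYL1 and AHCYL2 encode proteins related to AHCY that are better known as binding partners of inositol trisphosphate receptors and ion transporters than as hydrolases. AHCYL1 (ENSG00000168710, chromosome 1 at 109984686 to 110023741) had 52.0 and 51.5 FPKM with drug, against 48.6 and 49.0 FPKM in controls. Drug values were higher in both libraries, with a log2 fold change of 0.08 and an interval of 0.02 to 0.15 that did not pass after adjustment (limma adjusted p = 0.0888).

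AHCYL2 (ENSG00000158467, chromosome 7 at 129225023 to 129430211) had 10.03 and 10.3 FPKM in the drug libraries, against 20.3 and 20.4 FPKM in the controls. Replicates lay within 3% of each other in both groups, and the groups were far apart. These values rest on 2769 and 2736 reads with drug and 3963 and 5395 reads in controls. The log2 fold change was -0.93 ± 0.03 SE (95% interval -1.02 to -0.85, limma adjusted p = 0.000774), the 67th largest in size of 11227 tested genes. The adjusted p was 6.40e-07 with edgeR on whole reads, and with each library left out the limma adjusted p stayed between 0.00671 and 0.0181. Within each library AHCYL2 was 0.193 and 0.2003 of the AHCYL1 level with drug, against 0.418 and 0.416 in controls. Of the summed FPKM of AHCY, AHCYL1 and AHCYL2, the AHCYL2 share was 7.48 ± 0.0424% with drug and 14.0 ± 0.197% in controls. No 100-base word of AHCYL2 or AHCYL1 transcripts occurs in transcripts of another gene in GENCODE 29, so reads of that length would not be shared between the pair. AHCYL2 overlaps the processed pseudogene AC009244.1 on the opposite strand.

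**Figure D2:**
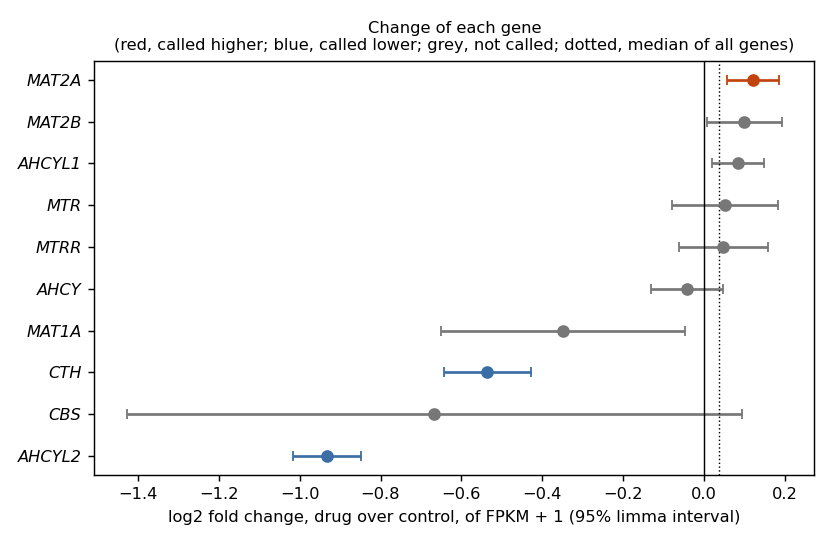
Log2 fold change of each gene, drug over control, on the FPKM + 1 scale (horizontal axis), with the 95% limma interval as bars and the median of all tested genes as a dotted line. AHCYL2 at -0.93 and CTH at -0.54 lie clear of 0, and the interval of CBS runs from -1.43 to 0.09.

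The profile of AHCYL2 over the 4 libraries was closest to those of DIO2, ALB and CYP4F22. Likeness was the Euclidean distance between log2(FPKM + 1) values centred on each gene's mean, over the 8379 protein-coding genes that averaged 2 FPKM or more. DIO2, which encodes a deiodinase that activates thyroid hormone, lay at a distance of 0.0797 and had 6.86 and 6.57 FPKM with drug, against 13.8 and 14.4 FPKM in controls. ALB, the albumin gene, lay at 0.0813. CYP4F22, a fatty acid hydroxylase of the cytochrome P450 family, lay at 0.0915 and had 2.07 FPKM in both drug libraries, against 4.64 and 4.46 FPKM in controls. With 4 libraries in 2 groups, any gene that fell by a similar amount lies close.

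The genes that methylate homocysteine back to methionine did not pass. MTR (ENSG00000116984, chromosome 1 at 236795281 to 236903981), the cobalamin-dependent methionine synthase, had 4.17 and 4.45 FPKM with drug, against 4.13 and 4.11 FPKM in controls. The gap between groups was smaller than that between the drug replicates, and the log2 fold change of 0.05 had an interval of -0.08 to 0.18 (limma adjusted p = 0.514). MTRR (ENSG00000124275, chromosome 5 at 7851186 to 7906025), the reductase that reactivates methionine synthase, had 14.8 and 13.9 FPKM with drug, against 13.6 and 14.1 FPKM in controls. Here the groups overlapped, with a log2 fold change of 0.05 and an interval of -0.06 to 0.16 (limma adjusted p = 0.481). MTRR overlaps FASTKD3 and C5orf49 on the opposite strand, and MTR overlaps the pseudogene RPSAP21, which has no values here, on its own strand.

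Of the transsulfuration pair, CTH fell and CBS could not be read with the same precision. CTH (ENSG00000116761, chromosome 1 at 70411218 to 70439851), cystathionine gamma-lyase, releases cysteine from cystathionine. Its level was 10.3 and 10.97 FPKM with drug, against 15.7 and 16.1 FPKM in controls, on 1004 and 1025 reads with drug and 1079 and 1500 reads in controls. Drug and control libraries were well separated, at a log2 fold change of -0.54 ± 0.04 SE (95% interval -0.64 to -0.43, limma adjusted p = 0.00445). With edgeR the adjusted p was 0.000177, and with each library left out the limma adjusted p ran from 0.0185 to 0.0423. In the authors' deposited table CTH and AHCYL2 have adjusted p-values of 2.16e-12 and 1.25e-105, and AHCYL2 alone of the 10 genes is listed there as down. CTH overlaps RF00017 on its own strand, a gene without values here.

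CBS (ENSG00000160200, chromosome 21 at 43053191 to 43076943), cystathionine beta-synthase, condenses homocysteine with serine and commits it to transsulfuration. Its level was 5.84 and 9.83 FPKM with drug, against 16.2 and 9.86 FPKM in controls. The groups nearly touched, since drug 2 and control 2 were nearly equal. The log2 fold change of -0.67 ± 0.30 SE did not pass (95% interval -1.43 to 0.09, limma adjusted p = 0.192). CBS passed neither edgeR (adjusted p = 0.0641) nor DESeq2 (adjusted p = 0.332), and the authors' deposited table lists an adjusted p of 0.596. Without drug 1 the log2 fold change was -0.33 and without control 1 it was -0.34, against -0.998 without drug 2 or control 2. Replicates differed 1.68-fold with drug and 1.64-fold in controls, and only 49 of 11227 tested genes had gaps at least as wide in both groups.

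CBS has a near copy in hg38, CBSL (chromosome 21 at 6444869 to 6468040). Of the 100-base words in CBS transcripts, 50.3% also occur in those of CBSL, so reads from the shared stretches cannot be assigned by sequence. CBSL held 128 and 66 reads with drug and 29 and 48 reads in controls, and replicates of the sum of CBS and CBSL lay almost as far apart as those of CBS alone. As CPM, which scales reads to each library's total, that sum was 42.8 and 68.4 with drug and 111 and 68.1 in controls. The neighbouring gene U2AF1, a splicing factor that also has a copy in the same distant stretch, differed more than CBS between the control libraries. Between the drug libraries U2AF1 was nearly equal, but its copy U2AF1L5, which held most reads of that pair there, had 38.6 and 72.1 CPM. U2AF1 held 187 and 185 reads with drug and 152 and 2629 in controls, and its copy U2AF1L5 held 1553 and 2788 reads with drug and 504 and 129 in controls. The copies and U2AF1 were chosen after their values were seen, and the part of read placement in the CBS values was not tested.

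**Figure D3:**
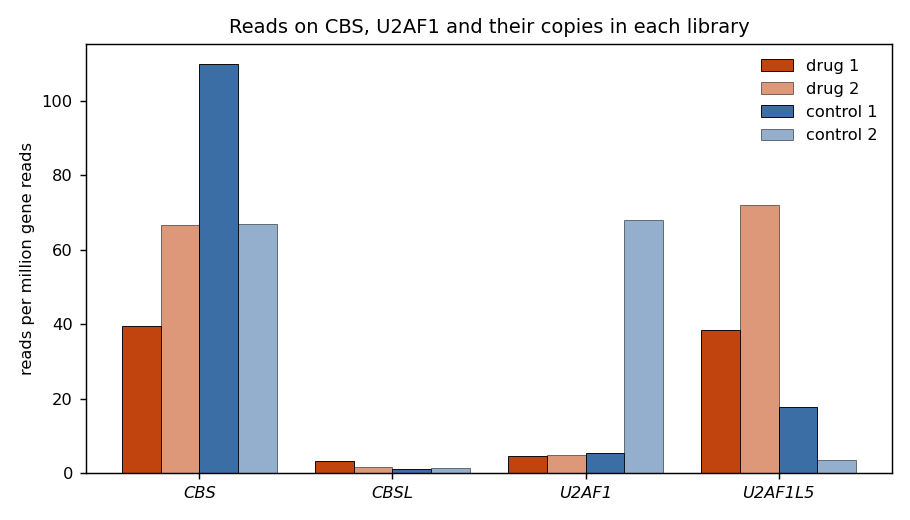
Reads scaled to the library total, as CPM (vertical axis, from 0), on CBS, U2AF1 and their copies CBSL and U2AF1L5 in each library, with drug in red and control in blue. U2AF1 has 68.1 in control 2 and 5.33 in control 1, while CBS has 110 in control 1 and 66.9 in control 2.

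Among all tested genes, the spread of the 10 was uneven. By size of the log2 fold change CBS ranked 205th, CTH 343rd and MAT1A 858th of 11227, and MAT2A ranked 4549th. In 4 of the 10 genes both drug libraries lay above both controls, in 4 both lay below, and 2 overlapped. Over all tested genes the drug libraries lay above in 40.3% and below in 23.3%, so separation of 2 against 2 libraries was common.

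**Figure D4:**
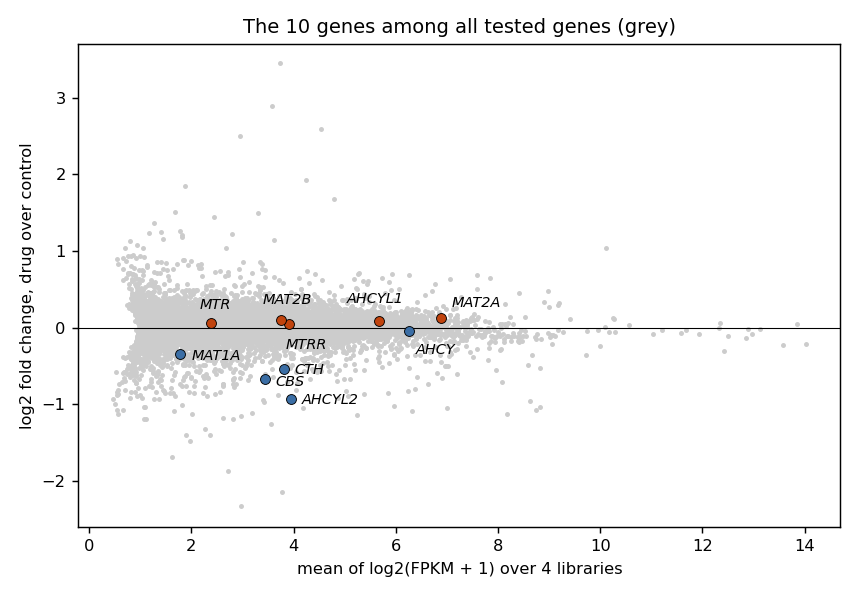
Mean of log2(FPKM + 1) over 4 libraries (horizontal axis) against log2 fold change of drug over control (vertical axis) for all 11227 tested genes (grey), with the 10 pathway genes named, red above 0 and blue below 0. AHCYL2, CBS, CTH and MAT1A lie at -0.35 or lower and the other 6 lie within 0.13 of 0.

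Genes linked to the cycle were read from 7 lists, given here by role. Of 56 listed genes 55 were in the table and 44 were tested, of which 3 rose, 3 fell and 38 did not pass, with a median log2 fold change of -0.03. Over all tested genes limma called 7.78% higher and 6.02% lower. By edgeR 3 of the 44 were higher and 8 lower, beside 8.37% and 11.0% of all tested genes. None of the 6 calls held with every library left out: CHDH, ALDH7A1, SRM and TST lost theirs in each case, NNMT kept its call only without control 1 and SQOR only without control 2.

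Supply of methyl groups from choline and betaine gave a riser and a faller among 7 tested genes. CHDH, choline dehydrogenase, had 7.30 and 7.33 FPKM with drug, against 5.52 and 5.25 FPKM in controls (log2 fold change 0.38 ± 0.04 SE, limma adjusted p = 0.00973). ALDH7A1, an aldehyde dehydrogenase that can make betaine, had 6.18 and 6.16 FPKM with drug, against 7.06 and 7.09 FPKM in controls (log2 fold change -0.17 ± 0.04 SE, limma adjusted p = 0.0469). BHMT2, which methylates homocysteine with S-methylmethionine, was at 49.9 ± 0.123 FPKM with drug and 50.03 ± 0.923 FPKM in controls, while BHMT, the betaine-dependent enzyme of liver, did not exceed 0.131 FPKM.

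Cobalamin handling genes did not pass limma in either direction (0 of 7 tested, 2 at an unadjusted p under 0.05, and 2 lower by edgeR and 1 lower by DESeq2). MMADHC, which routes cobalamin inside the cell, averaged 99.4 ± 2.55 FPKM with drug and 91.0 ± 2.89 FPKM in controls. CD320, the receptor that takes up bound cobalamin, averaged 21.6 ± 1.41 and 24.3 ± 0.0627 FPKM in drug and control libraries. Their limma adjusted p-values were 0.0766 and 0.0907. CD320 was lower by edgeR (adjusted p = 0.0174) and DESeq2 (adjusted p = 0.0279), while MMADHC passed neither (adjusted p = 0.197 with edgeR and 0.217 with DESeq2).

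Of 6 tested methyltransferases that spend S-adenosylmethionine on small molecules, NNMT fell. It methylates nicotinamide, and had 2.01 and 2.15 FPKM with drug, against 3.31 and 4.03 FPKM in controls (log2 fold change -0.60 ± 0.09 SE, limma adjusted p = 0.0200). TPMT and HNMT, which methylate thiopurines and histamine, had log2 fold changes of 0.02 and -0.01. Adenosine removal and S-adenosylmethionine transport gave 0 calls among 3 tested genes by limma (1 at an unadjusted p under 0.05, 1 lower by edgeR and 0 by DESeq2). The adenosine kinase gene ADK averaged 10.3 ± 0.0973 FPKM with drug and 11.2 ± 0.406 FPKM in controls. ADK did not pass limma (adjusted p = 0.137), and it was the gene lower by edgeR (adjusted p = 0.0462).

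Methionine salvage recovers methionine from the by-product of polyamine synthesis. Its list also held genes of that synthesis, such as SRM and SMS, and 1 of its 9 tested genes rose. SRM, spermidine synthase, had 65.9 and 67.4 FPKM with drug, against 57.0 and 58.1 FPKM in controls (log2 fold change 0.21 ± 0.03 SE, limma adjusted p = 0.0140). SMS, spermine synthase, averaged 144 ± 1.51 FPKM with drug and 150.4 ± 0.575 FPKM in controls, and did not pass limma (adjusted p = 0.137), while it passed as lower with edgeR (adjusted p = 0.0493) and DESeq2 (adjusted p = 0.0264). Each of these count tools called 1 gene of this list higher, SRM, and 2 lower, SMS and APIP. APIP, which belongs to salvage itself, averaged 12.7 ± 0.243 FPKM with drug and 14.8 ± 0.844 FPKM in controls. It did not pass limma (adjusted p = 0.0515) but was lower with edgeR (adjusted p = 0.00522) and DESeq2 (adjusted p = 0.000969). Downstream of transsulfuration, 7 tested genes of cysteine, taurine and sulfide breakdown gave 1 riser and 1 faller. SQOR, which oxidises hydrogen sulfide in mitochondria, had 21.0 and 21.8 FPKM with drug, against 16.1 and 17.4 FPKM in controls (log2 fold change 0.34 ± 0.05 SE, limma adjusted p = 0.0157). TST, the thiosulfate sulfurtransferase rhodanese, had 16.8 and 17.4 FPKM with drug, against 20.0 and 20.4 FPKM in controls (log2 fold change -0.23 ± 0.03 SE, limma adjusted p = 0.0173).

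Regulators and binding partners of the 10 genes gave 0 calls among 5 tested by limma, with 1 at an unadjusted p under 0.05 and 0 by edgeR or DESeq2. They include ITPR3, an inositol trisphosphate receptor, at 9.98 ± 0.664 FPKM with drug and 9.46 ± 0.00281 FPKM in controls, and the transcription factor gene SP1 with 18.1 and 18.6 FPKM with drug, against 16.5 and 16.9 FPKM in controls.

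**Figure D5:**
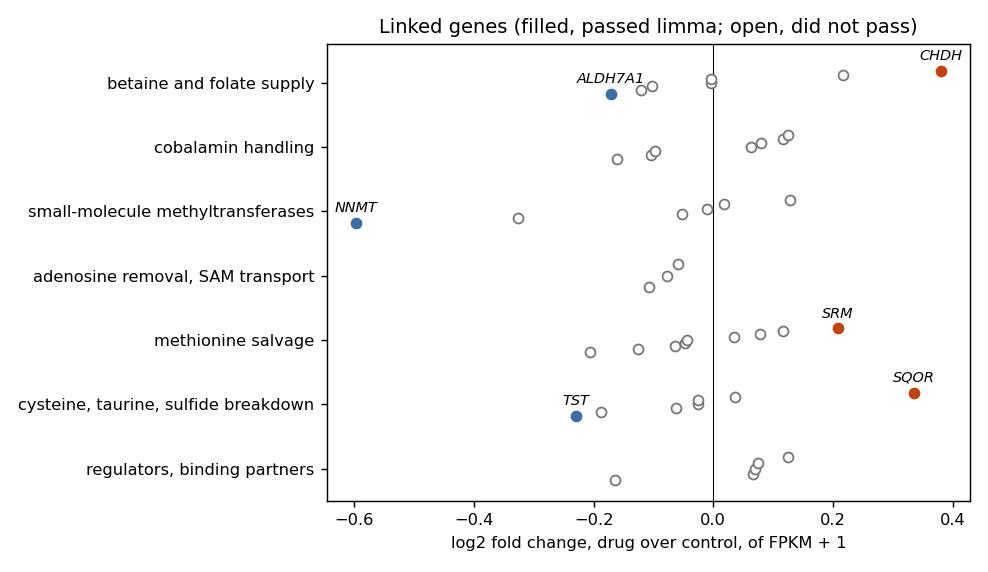
Log2 fold change of drug over control on the FPKM + 1 scale (horizontal axis) for the 44 tested genes of the 7 linked lists (rows), filled where limma passed at an adjusted p under 0.05. The 6 filled points are CHDH, SQOR and SRM to the right of 0 and NNMT, TST and ALDH7A1 to the left.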

How the data were processed

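RNA was extracted with trizol and made into stranded mRNA libraries by the Illumina TruSeq guide, per the labels' protocols. Per the submitters' processing notes, bcl2fastq and hg38 were used. Which aligner, counter and annotation were used is not given in the sources used here. Per-library values are the authors' deposited FPKM, identified from the values. The group columns are a signal, the deposited mean of reads divided by size factors. Per the file headers, the deposited log2 fold changes and p-values come from a comparison made by the authors.

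Combining FPKM with the group means gave back whole reads for each library, and 100% of values lay within 0.1 read of a whole number. DESeq2 1.42.0 on them, over all 26603 genes, gave log2 fold changes within 0.0001 of the deposited ones. The DESeq2 alternative covers the 11227 tested genes, so its values differ from those. Because the values are FPKM, limma 3.58.1 (trend) on log2(FPKM + 1) was the test, over the 11227 genes that averaged 1 FPKM or more in either group, with Benjamini-Hochberg adjustment. The alternatives tried were other pseudocounts (0.1 and 0.01), the unfiltered table, a replicate block, each library left out, TMM rescaling, and edgeR 4.0.16 (quasi-likelihood) and DESeq2 on whole reads. The limma, edgeR and DESeq2 fits and the read recovery were tested on simulated data. With 2 libraries a group an exact permutation cannot reach 0.05 and was not used, nor can outlying samples be tested in such groups.

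The 10 genes and the lists were chosen with earlier results of these data known. Named linked genes are those that passed limma plus up to 2 others a list by mean FPKM. Further genes were named after their values were seen (APIP, BHMT, U2AF1, U2AF1L5 and CBSL). Gene positions and the 100-base word search are from GENCODE 29 (GRCh38). Promoters are from RefSeq, in which 9 of the 10 genes were matched. Software was Python 3.11.15 (with pandas 2.3.3, numpy 2.4.6, matplotlib 3.10.9) and R 4.3.3.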

Additional observations from a re-analysis of the deposited data

How the results depend on the processing

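Of 110 values of the 10 genes under alternatives, 99 kept their direction and their side of the threshold, 9 lost the call, 2 gained it and 0 reversed. The lost calls are all of MAT2A, whose log2 fold change was 0.12 without the filter and with the replicate block, 0.082 with TMM-rescaled FPKM, 0.083 with edgeR and 0.083 with DESeq2, and 0.11 to 0.14 with each library left out. The gained calls are of MAT1A, at -0.54 with edgeR and -0.53 with DESeq2. AHCYL2 and CTH were lower under every alternative run. So 0 of the 10 genes were higher by limma without the filter, with the replicate block or with TMM, and 0 by edgeR and DESeq2. At an unadjusted p under 0.05 these settings had, in that order, 3, 3, 1, 1 and 1 higher. The share of all tested genes at an unadjusted p under 0.05 was not worked out, so no unadjusted count is read as a change.

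Linked genes called higher were 1 without the filter and 0 to 1 with a library left out. Those called lower were 0 without the filter (9 at an unadjusted p under 0.05), 0 to 1 with a library left out, 5 with TMM, 8 with edgeR and 6 with DESeq2. Over all tested genes 170 were higher without the filter, 474 with the replicate block, 540 with TMM and 115 to 221 with a library left out. Lower were 214 without the filter, 1233 with edgeR, 1109 with DESeq2 and 188 to 274 with a library left out. The lone library left in a group was assumed to vary like the other group, and fewer samples entered each such fit. The fit without the filter covered all 26603 genes, and each fit with a library left out applied the filter anew. Counts from those fits are thus not over the same genes as the main test. The other causes were not tested. Same-numbered libraries did not deviate together (correlation 0.0278 over genes), so the block is given here only. Of the 10 genes MAT1A had the fewest reads, 271 to 356 a library.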
